A study of Mus musculus with 24 samples.

Results

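MYT1L binding sites of wild-type prefrontal cortex at birth (P0) were set against those of adult wild-type (WT) prefrontal cortex. A site is a row of the deposited position list of its stage. The P0 list held 40698 sites and the adult WT list 32145, together 72843 of the 144257 sites in the series. A site was called shared when it overlapped a site of the other list by at least 1 bp, and P0-only or adult-only otherwise. Target genes were defined after the study's rule. They are protein-coding genes that have a site no more than 5 kb from one of their transcription starts.

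CUT&RUN was the assay. An antibody brings a nuclease to the chromatin where its protein sits, and the DNA fragments cut free are sequenced. The labels give the strain as C57BL/6J, whereas the study's methods name C57BL/6N for its mice. The mice had both copies of Myt1l intact and were taken at birth or at 3 months of age, and the labels do not give their sex. Each stage had 3 libraries with a MYT1L antibody and 3 with control IgG. The 3 MYT1L libraries of a stage were merged into 1 list before deposit, and the IgG libraries were not analysed here. Some adult titles read Myt2l or Myt3l. These libraries were taken as MYT1L because their descriptions name the Myt1l list. A pair of further lists, E18.5 WT cortex and adult prefrontal cortex heterozygous for a Myt1l mutation (HET), served to describe where a class of sites was also found. By the labels P0 and E18.5 were sequenced in run 1, and adult WT and HET in run 2. Stage and sequencing run therefore cannot be told apart in any value that sets P0 against the adult. The lists give positions without heights, library depth was unknown, and no replicate error or test between the stages was possible. A site missing from a list may have been bound below the level that was called. Position lists hold no expression, so the tissue label could not be checked against marker genes. Intervals are exact (Clopper-Pearson) 95% intervals for a share and Newcombe 95% intervals for a difference of shares. They cover counting error within the lists only, and neighbouring sites are not independent.

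MYT1L is a zinc finger transcription factor that appears when neurons are born and persists in mature neurons. It recruits co-repressors to DNA through the core motif AAAGTT and is known for holding down genes of progenitors and of non-neuronal lineages. Its targets include Hes1, through which Notch signalling keeps neural progenitors from differentiating.

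Sequences around site midpoints show what the core motif looks like in each class. The windows below are 150 bp of the plus strand of mm10 (GRCm38), and capitals mark AAAGTT or its reverse complement AACTTT. For each class, sites under 50% repeat were ranked by the number of core motifs in the window and then by width. Windows are labelled with the protein-coding gene of the nearest start. Whether an intron belongs to the gene in the label was not checked. Of the top 3 shared adult sites, the first lies in an intron nearest to Mef2c, a transcription factor of cortical excitatory neurons. The next lies in an intron nearest to Map4, which encodes a microtubule-associated protein. The last lies between genes 5.89 kb from the nearest start, that of Srbd1. All windows are centred on the adult site. The Mef2c window lies just before the overlapping P0 site, chr13:83527456-83528054, which meets the adult site chr13:83526861-83527517 at its end.
Shared, Mef2c intron, chr13:83527114-83527263: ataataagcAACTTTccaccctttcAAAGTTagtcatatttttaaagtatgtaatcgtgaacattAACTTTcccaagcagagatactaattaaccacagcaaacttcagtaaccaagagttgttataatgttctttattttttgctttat
Shared, Map4 intron, chr9:109968636-109968785: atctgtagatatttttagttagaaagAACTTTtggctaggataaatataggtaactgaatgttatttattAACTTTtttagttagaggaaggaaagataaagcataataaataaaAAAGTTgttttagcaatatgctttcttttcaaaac
Shared, near Srbd1, chr17:86150987-86151136: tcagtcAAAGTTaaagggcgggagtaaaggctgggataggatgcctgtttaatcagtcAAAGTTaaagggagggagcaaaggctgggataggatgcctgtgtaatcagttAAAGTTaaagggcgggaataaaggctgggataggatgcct
The P0 site at Map4, chr9:109968751-109969380, takes in the last of the 3 motifs of that window and starts after the other two. The Srbd1 window holds the motif 3 times in a tandem unit and lies wholly inside its P0 site. The first 2 P0-only windows lie in introns nearest to the starts of Peg10, an imprinted gene derived from a retrotransposon, and of Hnrnpdl, which encodes an RNA-binding protein.
P0-only, Peg10 intron, chr6:4752235-4752384: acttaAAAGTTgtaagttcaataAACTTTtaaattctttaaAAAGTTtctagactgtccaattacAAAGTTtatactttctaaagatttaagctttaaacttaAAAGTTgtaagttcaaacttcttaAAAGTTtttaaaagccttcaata
P0-only, Hnrnpdl intron, chr5:100038230-100038379: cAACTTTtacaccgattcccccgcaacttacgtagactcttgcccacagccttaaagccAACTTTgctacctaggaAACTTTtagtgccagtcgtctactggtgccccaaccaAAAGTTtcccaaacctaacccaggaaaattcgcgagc
The first 2 adult-only windows lie in introns far from any start. The nearest were those of Insr, the insulin receptor gene, at 107.5 kb and of 5730480H06Rik at 67.0 kb.
Adult-only, Insr intron, chr8:3172036-3172185: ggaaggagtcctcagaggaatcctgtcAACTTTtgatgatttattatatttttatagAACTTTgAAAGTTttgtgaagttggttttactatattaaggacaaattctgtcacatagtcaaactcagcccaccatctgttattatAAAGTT
Adult-only, 5730480H06Rik intron, chr5:48439288-48439437: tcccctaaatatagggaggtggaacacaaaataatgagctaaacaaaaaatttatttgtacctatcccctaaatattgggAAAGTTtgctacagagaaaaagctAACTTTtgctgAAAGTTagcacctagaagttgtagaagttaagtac
The last 2 windows show adult-only sites with the most copies of TGACTC (capitals, with its reverse complement GAGTCA), the AP-1 core that FOS and JUN proteins recognise, since this word was more frequent in the adult-only class than in the others. The Dera window holds 7 copies, in a short tandem repeat. The Msra window holds 5 copies without a tandem unit.
Adult-only with AP-1 words, Dera intron, chr6:137843485-137843634: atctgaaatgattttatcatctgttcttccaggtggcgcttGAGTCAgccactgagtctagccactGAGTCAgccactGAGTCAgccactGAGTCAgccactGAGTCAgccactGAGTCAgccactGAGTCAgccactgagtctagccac
Adult-only with AP-1 words, Msra intron, chr14:64368404-64368553: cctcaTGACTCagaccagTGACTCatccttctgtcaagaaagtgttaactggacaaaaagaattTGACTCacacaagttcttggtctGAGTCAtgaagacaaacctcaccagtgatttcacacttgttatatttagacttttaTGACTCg

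Few sites were found at both stages. There were 3253 shared P0 sites (7.99%, 7.73 to 8.26%) and 3343 shared adult sites (10.4%, 10.1 to 10.7%). The same sites moved by 10 kb along the chromosome overlapped the other list at 0.903% and 1.15%, a measure of how often neighbouring positions meet. Of all adult WT sites 8.38% were also adult HET sites, from the same age and run but another genotype. Of all P0 sites 34.8% were also E18.5 sites, from the same run. Low sharing was thus also seen between lists of the same age. The P0 and adult WT lists differed in site width as well as in number. P0 sites had a median width of 276 bp (quartiles 179 and 441 bp) and covered 0.543% of the genome, while adult sites had a median of 167 bp (121 and 248 bp) and covered 0.249%.

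Where the lists met, they mostly marked the same short stretch, with the adult site lying inside the P0 site. This was so in 63.1% of the 3373 overlapping pairs, and the P0 site was the wider in 85.1%. The midpoints of a pair lay a median of 85 bp apart, and 93.7% of pairs overlapped by at least 50% of the narrower site. Most shared P0 sites, 3140 of 3253, met 1 adult site, and no P0 site met more than 4. Sites that were not shared rarely had a near neighbour in the other list. The nearest P0 site lay a median of 26.9 kb from an adult-only site, and within 500 bp of 3.17% of them.

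Promoter sites, counted from 1000 bp before to 100 bp after a transcription start, were shared more often than sites elsewhere in both lists. Of adult promoter sites 51.1% were also P0 sites, against 6.95% of other adult sites (difference 44.1 percentage points, 42.1 to 46.1). Of P0 promoter sites 13.3% were also adult sites, against 6.42% of other P0 sites (difference 6.87 points, 6.15 to 7.63). With distance from a start the shared portion of the adult list dropped from 61.4% of sites within 0.5 kb to 27.4% at 0.5 to 1 kb and 12.4% at 1 to 5 kb, and lay between 5.93% and 6.91% farther out. In the P0 list it was 13.6% within 0.5 kb and between 4.64% and 7.01% in every farther class.

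Width went with sharing in both lists. With each list cut into 10 equal classes by width, 1.77% of P0 sites were shared in the narrowest class and 23.3% in the widest. The adult list went from 3.89% to 20.03%. A wider interval meets more sites by its size alone, and with every site set to 200 bp the widest class was at 14.1% for P0 and 16.1% for the adult, against 2.01% and 3.08% in the narrowest. Outside promoters the adult shares in the narrowest and widest class were 3.07% and 15.7% at the listed widths. With every site set to 200 bp they were 2.36% and 12.9%, so the trend was also present away from starts. Shared P0 sites had a median width of 470 bp against 264 bp for P0-only sites, and shared adult sites 224 bp against 162 bp for adult-only sites.

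**Figure D1:**
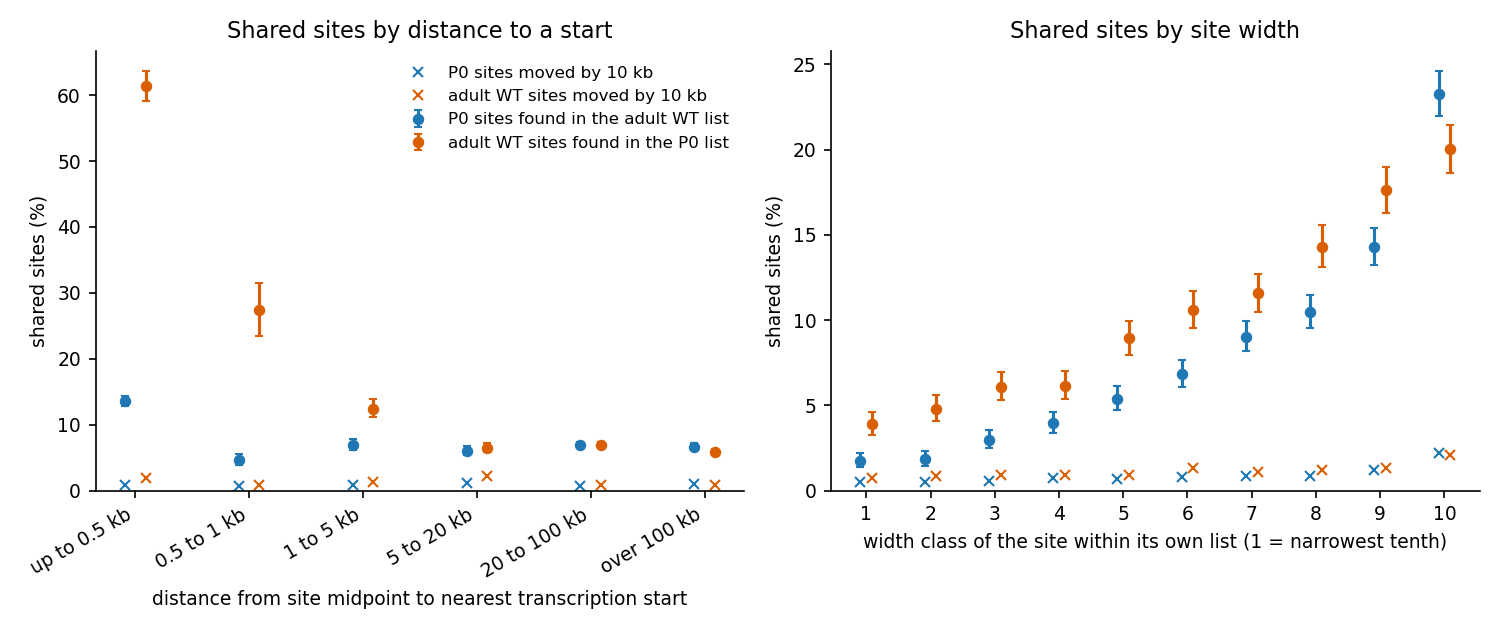
Shared sites (% of sites, with exact 95% interval) by distance from a transcription start (left) and by width class within the site's own list (right), for P0 sites in blue and adult WT sites in orange. Crosses give the same sites moved by 10 kb. Adult sites within 0.5 kb of a start stand apart at 61.4%, and both lists rise with width to 23.3% and 20.03% (14.1% and 16.1% with every site set to 200 bp).

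Shared, P0-only and adult-only sites lay in different parts of the genome, while shared sites lay alike whichever list they were taken from. Promoters held 38.1% of shared P0 sites, 38.3% of shared adult sites and 21.6% of P0-only sites, but 4.27% of adult-only sites, close to the 2.54% of genome bases that are promoter. Introns held 46.6% of adult-only sites and intergenic sequence 46.1%. The median distance to the nearest start was 7.74 kb for shared P0 sites, 21.2 kb for P0-only sites and 61.6 kb for adult-only sites. Around the starts of genes with a CpG-rich promoter, P0 sites covered 48.3% of genes at the peak, 50 bp upstream, and adult sites 9.93%. At CpG-poor promoters these values were 8.67% and 2.12%.

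**Figure D2:**
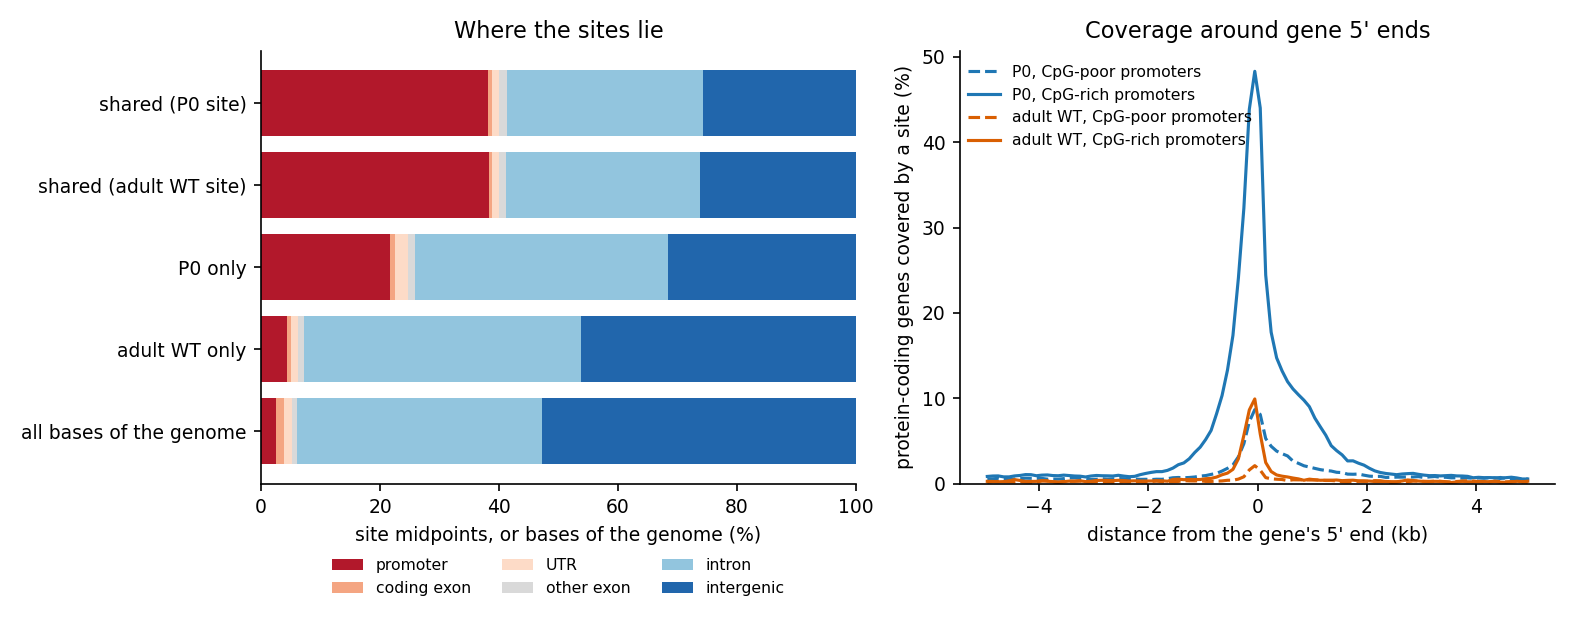
Left, site midpoints (% of sites) by annotation for the shared, P0-only and adult-only classes, with the bases of the genome in the bottom bar. Right, protein-coding genes (%) covered by a site in 100 bp bins around the 5' end of the gene, split by list and by CpG class of the promoter. Promoters took 38.1% of shared P0 sites and 4.27% of adult-only sites, and the P0 curve at CpG-rich promoters reached 48.3%.

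The lists differed most in short genes. Inside genes of up to 20 kb there were 0.373 adult sites for each P0 site, and inside the 567 genes over 300 kb 0.906. Per 100 kb of gene, P0 sites numbered 3.57 in the short genes and 1.59 in the longest, and adult sites 1.33 and 1.44. Promoter sites, 22.9% of the P0 list and 7.81% of the adult list, were included, and their part in these values was not tested. Nrxn3 and Dlg2, which encode a presynaptic adhesion protein and the postsynaptic scaffold PSD-93, were among the 5 genes with the most adult-only sites in their span (38 and 37), beside Csmd1 (37), C130026I21Rik (71) and Gm37240 (38). Nrxn3 held 28 P0 and 42 adult sites, Csmd1 18 and 37 and C130026I21Rik 5 and 71, but Dlg2 held 36 and 40 and Gm37240 44 and 47, nearly the same number at both stages. Gm37240, Nrxn3, Csmd1 and Dlg2 span 1391, 1612, 1643 and 1973 kb. They held 3.38, 2.61, 2.25 and 2.03 adult sites per 100 kb, against 25.6 in C130026I21Rik, which spans 278 kb. By count, the most P0-only sites lay in Gm20388 (81), Fgfr2 (77), the basic helix-loop-helix factor gene Tcf4 (72) and the nuclear factor I genes Nfib (60) and Nfia (47). Gm20388 and Fgfr2 have annotated spans of 4435 and 2961 kb and held 1.92 and 2.74 P0 sites per 100 kb, against 23.4 in Tcf4 and 14.4 in each of Nfib and Nfia. On the X chromosome lay 3.62% of adult sites and 2.15% of P0 sites (difference 1.47 points, 1.23 to 1.72).

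Adult-only sites held more repeated sequence than the other classes, which bears on where their reads could be placed. At least 50% of the bases were annotated repeat in 17.5% of adult-only sites, 4.83% of P0-only sites, 1.59% of shared adult sites and 0.984% of shared P0 sites. The central 31 bases occurred more than once in the genome in 12.4% of adult-only sites, 3.59% of P0-only sites (3.41 to 3.79%), 1.79% of shared adult sites and 2.34% of shared P0 sites. Of adult sites with a repeated centre 1.65% were shared, and of those with a single-copy centre 11.5%. Some adult sites stood in dense clusters. The 1 Mb tile with the most, on chromosome 8 from 20 Mb, held 200 adult and 33 P0 sites, against medians of 11 and 14 per tile. The part of repeated sequence in the adult-only class was not tested beyond these values.

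Shared sites were found in the E18.5 and adult HET lists more often than sites that were not shared. Of shared P0 sites 67.9% were also E18.5 sites, against 32.0% of P0-only sites (difference 36.0 points, 34.3 to 37.6). Of shared adult sites 17.5% were also adult HET sites, against 7.32% of adult-only sites (difference 10.2 points, 8.89 to 11.5). All 4 lists held 530 of the shared P0 sites (16.3%). Neither of the further lists held 66.7% of P0-only sites and 91.1% of adult-only sites. E18.5 was sequenced in the run of P0 and adult HET in that of adult WT, so these shares carry the run as well.

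Relative to genome windows of like composition, the MYT1L core motif was more frequent in P0-only and shared sites than in adult-only sites. AAAGTT was searched on both strands in the 150 bp around each midpoint, and its share was divided by that of all genome windows of the same GC and CpG content. It is found in 12% of all genome windows. Shared P0 sites held it in 13.7% (1.49 times the like windows, 1.37 to 1.63), shared adult sites in 13.4% (1.46 times, 1.34 to 1.60) and P0-only sites in 14.6% (1.42 times, 1.39 to 1.46). Adult-only sites held it in 13.7%, which was 1.09 times the like windows (1.06 to 1.12). The shares themselves were alike, while the share in like windows was 9.20% for shared P0, 10.3% for P0-only and 12.6% for adult-only sites. Against windows 1 to 2 kb away from the same sites the ratio was 1.28 (1.25 to 1.31) in P0-only, 1.20 (1.10 to 1.31) in shared adult and 1.15 (1.12 to 1.19) in adult-only sites, so by this measure the intervals of shared adult and adult-only sites overlapped. At promoters the ratio of adult-only sites was 1.03 (0.853 to 1.24) and that of P0-only sites 1.62 (1.51 to 1.74).

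Among adult-only sites the motif ratio went with width and with copy number. Outside promoters it was 0.954, 1.01 and 1.07 in the 3 narrower of 4 equal width classes and 1.37 (1.30 to 1.45) in the widest. P0-only sites were at 1.35 in the narrowest and 1.27 in the widest of their classes. Adult-only sites that were also in the adult HET list gave 1.32 (1.19 to 1.47). Adult-only sites with a single-copy centre gave 1.13 and those with a repeated centre 0.853. Over all sites, carrying the motif went little with whether a site was shared. Of P0 sites 8.07% without AAAGTT, 7.38% with 1 and 9.08% with more were adult sites too. For adult sites these values were 10.4%, 10.002% and 11.9%. Outside promoters they were 6.37%, 6.40% and 8.98% of P0 sites. For adult sites outside promoters the share rose with the number of motifs, from 6.73% (6.43 to 7.05%) to 8.03% (7.18 to 8.93%) and 11.2% (8.19 to 14.8%).

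**Figure D3:**
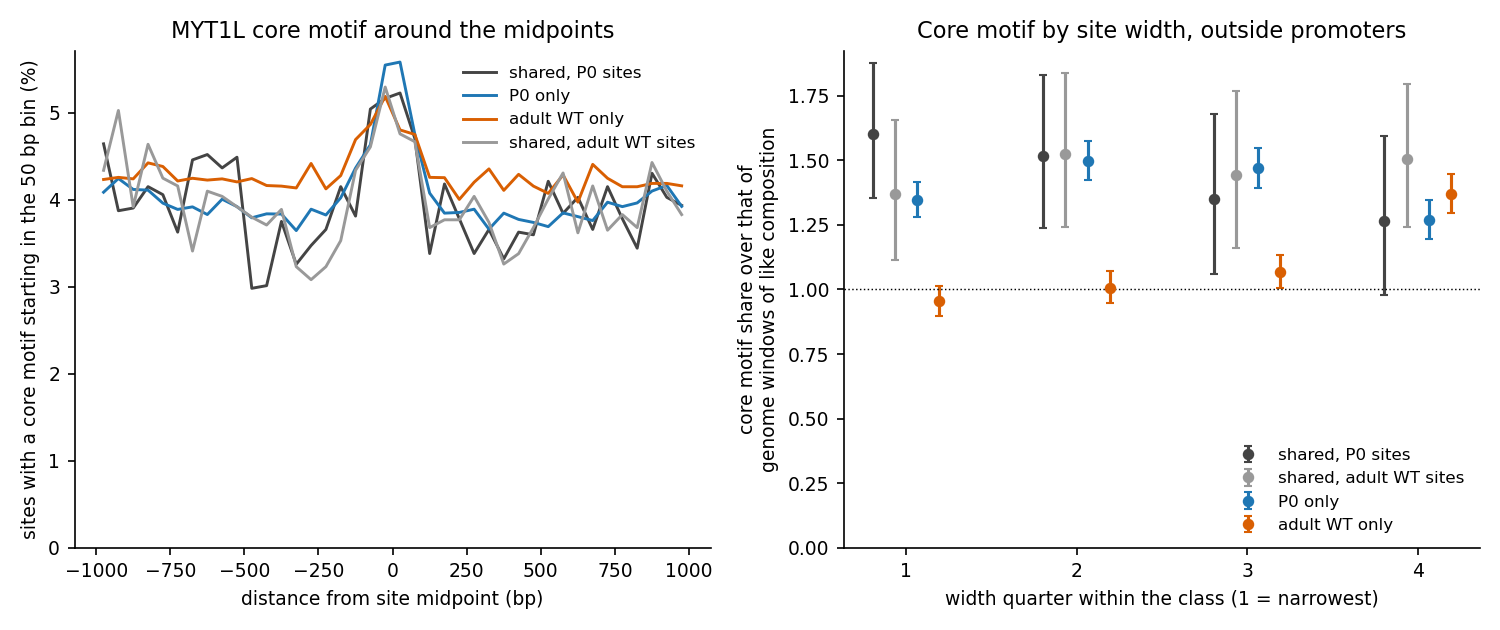
Left, sites (%) with AAAGTT on either strand starting in each 50 bp bin around the midpoint. Right, share of sites outside promoters with AAAGTT in the central 150 bp over that of genome windows of like composition (with 95% interval), by width class within each group of sites. The 3 narrower classes of adult-only sites lie near 1, at 0.954, 1.01 and 1.07, and the widest is at 1.37.

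Other transcription factor words divided the classes further. A word match is a description of sequence, not evidence that the factor was bound. Outside promoters, the nuclear factor I, POU and E-box words were highest in shared sites, and the homeodomain word in P0-only sites. The nuclear factor I half-site TTGGCA (7.43% of all genome windows) stood at 2.30 times the like windows (2.08 to 2.53) in shared adult sites, 1.87 (1.81 to 1.92) in P0-only sites and 1.29 (1.24 to 1.34) in adult-only sites. The POU octamer ATTTGCAT (1.29% of windows) gave 3.01, 2.10 and 1.41 in the same order. CAGATG (11.4% of windows), the E-box of proneural factors such as NEUROD, was at 1.96 (1.80 to 2.13) in shared adult sites and nearly equal in P0-only and adult-only sites, at 1.34 and 1.32. The homeodomain word TAATTA (5.44% of windows, its own reverse complement) was highest in P0-only sites at 1.53 (1.47 to 1.60) and was at 0.891 (0.848 to 0.935) in adult-only sites.

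Words of factors that respond to neuronal activity were more frequent in adult-only than in P0-only sites. TGACTC of AP-1 (7.46% of windows) was at 1.42 (1.37 to 1.47) in adult-only sites outside promoters, against 0.904 (0.865 to 0.943) in P0-only sites and 1.13 (0.974 to 1.30) in shared adult sites. GTGGGC, bound by EGR factors (5.06% of windows), was at 1.65 (1.58 to 1.72), 0.864 (0.821 to 0.908) and 1.12 (0.937 to 1.32). The MEF2 half-site CTATTT (11.0% of windows) was at 1.27 in adult-only and 1.05 in P0-only sites, and at 1.46 in shared adult sites. From the narrowest to the widest of the 4 classes of adult-only sites the ratio of TGACTC went from 1.20 to 1.73, that of GTGGGC from 1.13 to 2.24 and that of CTATTT from 1.06 to 1.57. In adult-only sites that were also adult HET sites TGACTC was at 1.84 and GTGGGC at 2.18. In those with a repeated centre both were below 1, at 0.912 and 0.943. TATATA (7.07% of windows, its own reverse complement) was also higher in adult-only sites, at 1.31, than in P0-only sites, at 0.631.

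At promoters, words of general promoter factors were high in every class with few exceptions. The CCAAT box word GATTGG, bound by NFY (5.05% of windows), was at 3.22 in shared adult sites, 1.74 in P0-only sites and 2.69 in adult-only sites. The SP and KLF word GGGCGG (1.46% of windows), which can overlap GTGGGC by its GGGC, was at 2.39, 1.61 and 2.58, and the CRE core TGACGT (1.09% of windows), which begins like TGACTC, at 2.23, 2.00 and 1.75. The NRF1 word GCGCATGC (0.157% of windows) was at 3.72 (3.30 to 4.18) in P0-only promoter sites and at 1.19 (0.543 to 2.24) in adult-only ones.

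**Figure D4:**
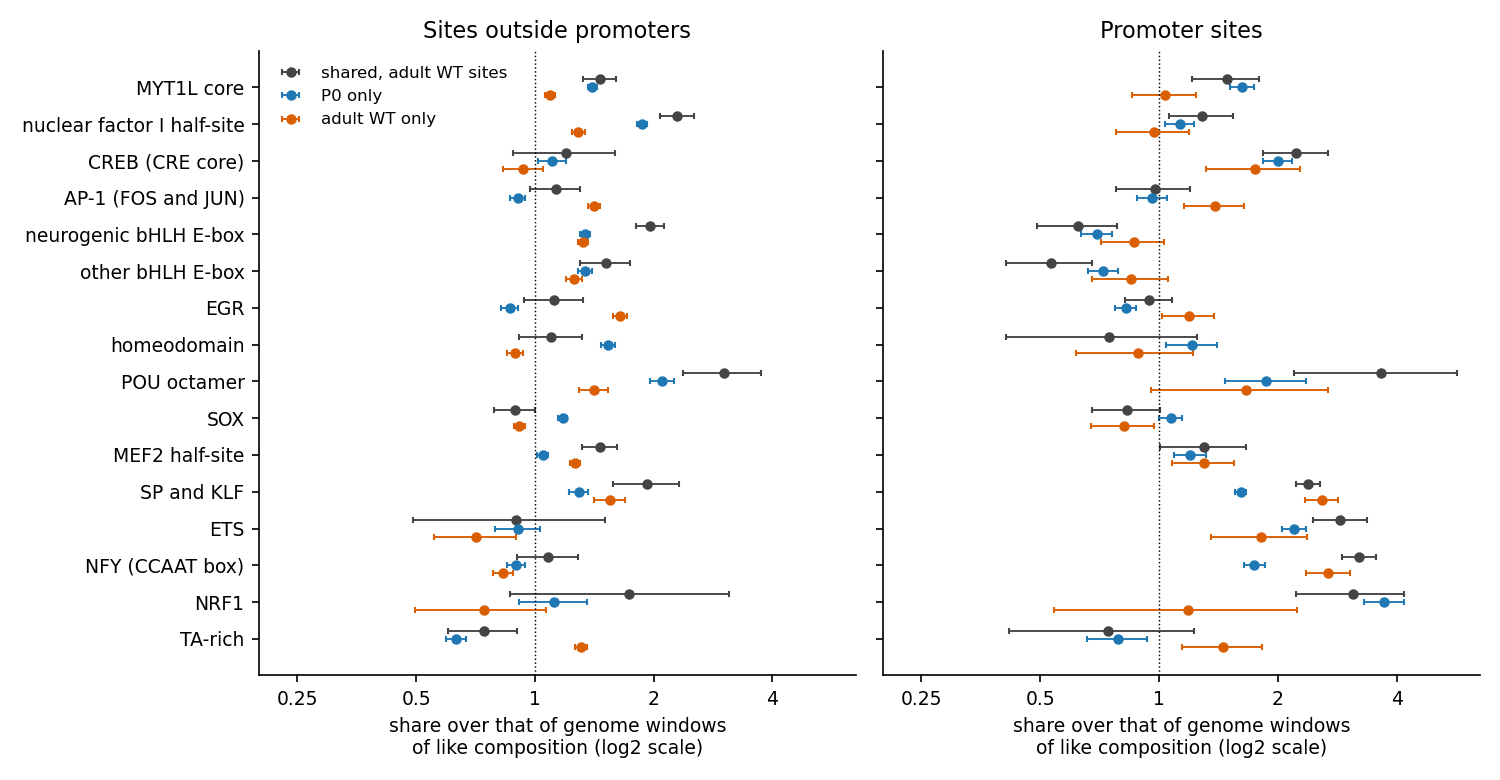
Share of sites with each of 16 factor words in the central 150 bp over that of genome windows of like composition (log2 axis, with 95% interval), outside promoters (left) and at promoters (right), for shared adult WT, P0-only and adult-only sites. Outside promoters the AP-1 and EGR words are highest in adult-only sites (1.42 and 1.65), and the nuclear factor I and POU words in shared sites (2.30 and 3.01).

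At the level of genes, most adult targets were P0 targets too. P0 sites gave 10080 target genes (45.9% of 21938 protein-coding genes) and adult sites 4404 (20.1%). Of the P0 targets 3095 (30.7%, 29.8 to 31.6%) were also adult targets, and of the 11858 genes with no P0 site 1309 (11.0%) were. Adult targets that were also P0 targets made up 70.3% of the adult list, where 45.9% of all genes were P0 targets. Of adult sites 10.4% were shared, where 1.15% overlapped when moved by 10 kb. These shares have unlike backgrounds and cannot be compared directly. Of the 3095 common targets 1831 (59.2%) had an overlapping pair of sites, and the other 1264 (40.8%) carried P0 and adult sites at separate places. Genes with more P0 sites were more often adult targets, at 26.9% with 1 site and 44.7% with 4 or more. Sites were counted around every annotated start, so genes with many spread starts had more sequence searched in both lists. The rankings of genes by bound sequence carry this too, and its part was not tested. Genes with a CpG-rich promoter were P0 targets in 71.9% and adult targets in 27.1%, and genes with a CpG-poor promoter in 25.2% and 14.4%.

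The common targets with the most overlapping sequence included cortical regulators, a postsynaptic protein and histones. Tcf4, which is linked to intellectual disability, led with 27 P0 sites of 19165 bp and 9 adult sites of 1752 bp, of which 1310 bp overlapped. Fbxl19, an F-box protein gene that binds CpG islands, had an adult promoter site of 1171 bp (chr7:127745118-127746288) inside a P0 site of 2070 bp (chr7:127744430-127746499). Lrrc7, which encodes the postsynaptic protein densin, carried 2 sites in each list in an intron, with 1123 bp in common. Zbtb18, a repressor needed for cortical neuron differentiation, had 5 P0 sites and 3 adult sites, each adult site overlapping a P0 site. The others were Gsk3a, a kinase of Wnt signalling, the adaptor gene Ap3m2, Fbrs, Hnrnpul2 with its neighbour Ttc9c, and the histone genes Hist1h4a and Hist1h3h. The Myt1l gene itself (chr12:29528384-29923213) carried 13 P0 sites of 7211 bp and 3 adult sites of 584 bp, all 3 overlapping P0 sites.

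Among P0 targets with no adult site, those with the most bound sequence included several developmental regulators. Pax6 and Sox9, factors of cortical progenitors, each had 8 P0 sites, of 3989 and 4051 bp. Bcl11a, a factor of deep-layer neurons, had 10 sites of 5220 bp, Zbtb20 11 of 7764 bp, Meis2, a homeodomain factor, 8 of 4344 bp, and Bcl6, a repressor that promotes neurogenesis, 7 of 4541 bp shared with Gm37419. Mllt10, a cofactor of histone H3 methylation, had 18 sites of 5699 bp, St8sia4, a polysialic acid synthase, 4 of 4117 bp, Mpped2 8 of 4468 bp and A830031A19Rik 7 of 3906 bp. The A830031A19Rik sites are 7 of the 10 Bcl11a sites. Among adult targets with no P0 site, Hjurp, a chaperone of centromeric histone, had the most bound sequence, 11 sites of 2820 bp, and Sp110 with Sp140 had 4 of 2452 bp. The others were Gm21149, Gm21190, Mroh2a, Gm10354, A530032D15Rik, Duxf3 and Speer4e. Several of these belong to families of near-identical copies, among which reads can be placed wrongly, so their values are uncertain.

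Gene lists of cortical development were mostly P0 targets, at 59.4% to 84.6%, against 45.9% of all genes. Their adult shares were 18.75% to 20%, near the 20.1% of all genes, apart from migration and early neurons at 30.8% (14.3 to 51.8%). Of 30 progenitor genes 25 were P0 targets and 6 adult targets, with 5 in common. Emx2, Lhx2, Pax6 and Sox9 were among the 20 with P0 sites alone. Axon guidance genes gave 31 and 8 of 40, Wnt pathway genes 29 and 9 of 48, and genes of migration and early neurons 22 and 8 of 26. Notch pathway genes gave 19 and 6 of 32, and all 6 were also P0 targets. CpG-rich promoters made up 46.2% (migration and early neurons) to 81.25% (Wnt) of these lists, against 44.4% of all genes. Genes with a CpG-rich promoter were P0 targets in 71.9% and those with a CpG-poor promoter in 25.2%. The part of promoter composition in the shares of gene lists was not tested. Hes1 (chr16:30064384-30067796) had a P0 site of 985 bp with an adult site of 540 bp wholly inside it. Hes5, another Notch effector, had a P0 site of 327 bp and an adult site of 409 bp that did not overlap. The Notch mediator Rbpj, with 5 P0 sites of 2304 bp, and the ligand gene Dll1, with 5 of 1451 bp, had no adult site.

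Layer identity genes were adult targets at a higher share than these lists. Of 26 such transcription factor genes 24 (92.3%) were P0 targets and 14 (53.8%) adult targets, against 45.9% and 20.1% of all genes. CpG-rich promoters made up 65.4% of this list, against 44.4% of all genes, and their part was not tested. Mef2c (chr13:83504034-83667080) carried 8 P0 sites of 4093 bp and 6 adult sites of 1964 bp, 709 bp of them in common, and Tbr1, a deep-layer factor, 7 P0 sites and 1 adult site. The upper-layer factor genes Cux1 and Cux2 had 7 and 6 P0 sites and no adult site. Nfib had 6 P0 sites of 8669 bp and 1 adult site of 148 bp elsewhere. Of the 7 MYT and nuclear factor I genes all were targets at both stages, 6 with an overlapping pair.

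Adult shares of synaptic gene families ran from 5.56% to 53.8%, against 20.1% of all genes. Their P0 shares ran from 38.9% to 72.4%, against 45.9%. Of 29 postsynaptic scaffold genes 21 were P0 and 14 adult targets with 13 in common, of which 3 had an overlapping pair, and of 36 synaptic vesicle release genes 24 and 15 with 12 in common. Genes of AMPA, kainate and NMDA receptors, which carry fast excitatory transmission, and of their auxiliary subunits were targets about as often at both stages, 13 and 14 of 26. Of these, 8 genes were common (61.5% of the P0 targets, against 30.7% over all genes), and 2 of the 8 had an overlapping pair, so the positions mostly differed. Gria2 carried 7 P0 sites of 2841 bp and no adult site, whereas Gria1 carried 1 adult site of 120 bp and no P0 site. The adult sites at these genes were narrow, with a median of 146 bp, and none was an adult HET site. Within 1 kb of a start, 10 of these genes were P0 and 5 adult targets. GABA-A receptor genes gave 7 P0 targets and 1 adult target of 18, Gabra2 (5.56%, 0.141 to 27.3%). Voltage-gated calcium channel genes gave 10 and 1 of 15, Cacna1c (6.67%, 0.169 to 31.9%). Both adult intervals hold the 20.1% of all genes. CpG-rich promoters made up 33.3% (GABA-A receptors) to 65.4% (AMPA, kainate and NMDA receptors) of these lists, against 44.4% of all genes. Their part was not tested.

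Activity-regulated and clock genes had P0 shares of 67.6% to 80.8%, against 45.9% of all genes, and adult shares of 42.3% to 56.5%, against 20.1%. CpG-rich promoters made up 58.8% (activity-induced effectors) to 84.6% (immediate early factors) of these lists, against 44.4% of all genes. Genes with a CpG-rich promoter were adult targets in 27.1%. The part of promoter composition in these shares was not tested. Immediate early factor genes, switched on within minutes of neuronal firing, gave 21 P0 and 11 adult targets (42.3%) of 26 with 10 in common, including Fos, Jun, Egr1 and Nr4a3. Of 34 activity-induced effector genes 23 and 15 (44.1%) were targets with 13 in common, 10 of them by an overlapping pair. Bdnf, a growth factor gene, had 3 sites in each list, all overlapping, and Homer1, a postsynaptic scaffold gene, 6 P0 sites of 2653 bp and 3 adult sites of 1349 bp. Arc (chr15:74669083-74672570), whose protein drives removal of AMPA receptors, had 3 adult sites of 695 bp and no P0 site, and the adult HET list held 4 sites there. Of 23 clock genes 17 and 13 (56.5%) were targets with 12 in common. Nr1d1, a repressor of the clock loop, had 1 P0 and 2 adult sites, and Per3 had 3 adult sites of 844 bp and no P0 site.

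Interneuron genes were P0 targets about as often as all genes, 12 of 27 (44.4% against 45.9%), including Maf, Gad1 and Dlx1. The adult targets were 3 (11.1% against 20.1%), Cck, Elfn1 and Npas1. None of the 12 P0 targets was an adult target, against 30.7% of P0 targets over all genes, a small count with no test. Astrocyte genes gave 9 and 4 of 20 with 2 in common. Markers of oligodendrocytes, of non-neural cells and of other tissues had P0 shares below the 45.9% of all genes, from 6.45% to 27.6%. Their adult shares ran from 1 of 25 endothelial and mural genes to 6 of 30 liver and pancreas genes, the latter close to the 20.1% of all genes. P0 and adult targets were 4 and 3 of 22 for microglia, 4 and 1 of 25 for endothelial and mural cells, 2 and 1 of 22 for the oligodendrocyte lineage, 2 and 4 of 31 for muscle, 4 and 3 of 29 for epithelium, 8 and 6 of 30 for liver and pancreas and 8 and 4 of 29 for blood. In these marker lists 12.9% (muscle) to 24.1% (epithelium) of genes had a CpG-rich promoter, against 44.4% of all genes. Genes with a CpG-poor promoter were P0 targets in 25.2%. The part of promoter composition in these shares was not tested.

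Gene families active in all cells and lists of disease genes were P0 targets at 69.05% or more, against 45.9% of all genes, and adult targets at 23.8% to 34.9%, against 20.1%, apart from the histone genes below. Cytosolic ribosomal protein genes gave 75 and 29 of 83, mitochondrial ribosomal protein genes 64 and 20 of 78, oxidative phosphorylation genes 31 and 11 of 40, chromatin modifier genes 43 and 17 of 50, autism-associated genes 51 and 17 of 58, and epilepsy-associated genes 29 and 10 of 42. CpG-rich promoters made up 45.2% (epilepsy) to 83.1% (cytosolic ribosomal proteins) of these lists, against 44.4% of all genes, and their part was not tested. Potassium channel genes gave 20 and 10 of 35 (57.1% and 28.6%). Replication-dependent histone genes were targets at both stages in most cases, with 65 P0 and 61 adult targets of 67, all 61 in common and 55 with an overlapping pair. These genes lie in clusters and resemble each other, so several can share a site. With single-copy site centres alone 54 and 53 were targets with 52 in common. Olfactory receptor genes, silent in cortex, ran the other way, with 23 P0 targets (2.03%) and 100 adult targets (8.81%) of 1135 and 4 in common. Both values were below the background of their list. Of the 105 adult sites at these genes 15.2% had a repeated centre, and with single-copy centres alone 20 and 86 genes were targets.

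**Figure D5:**
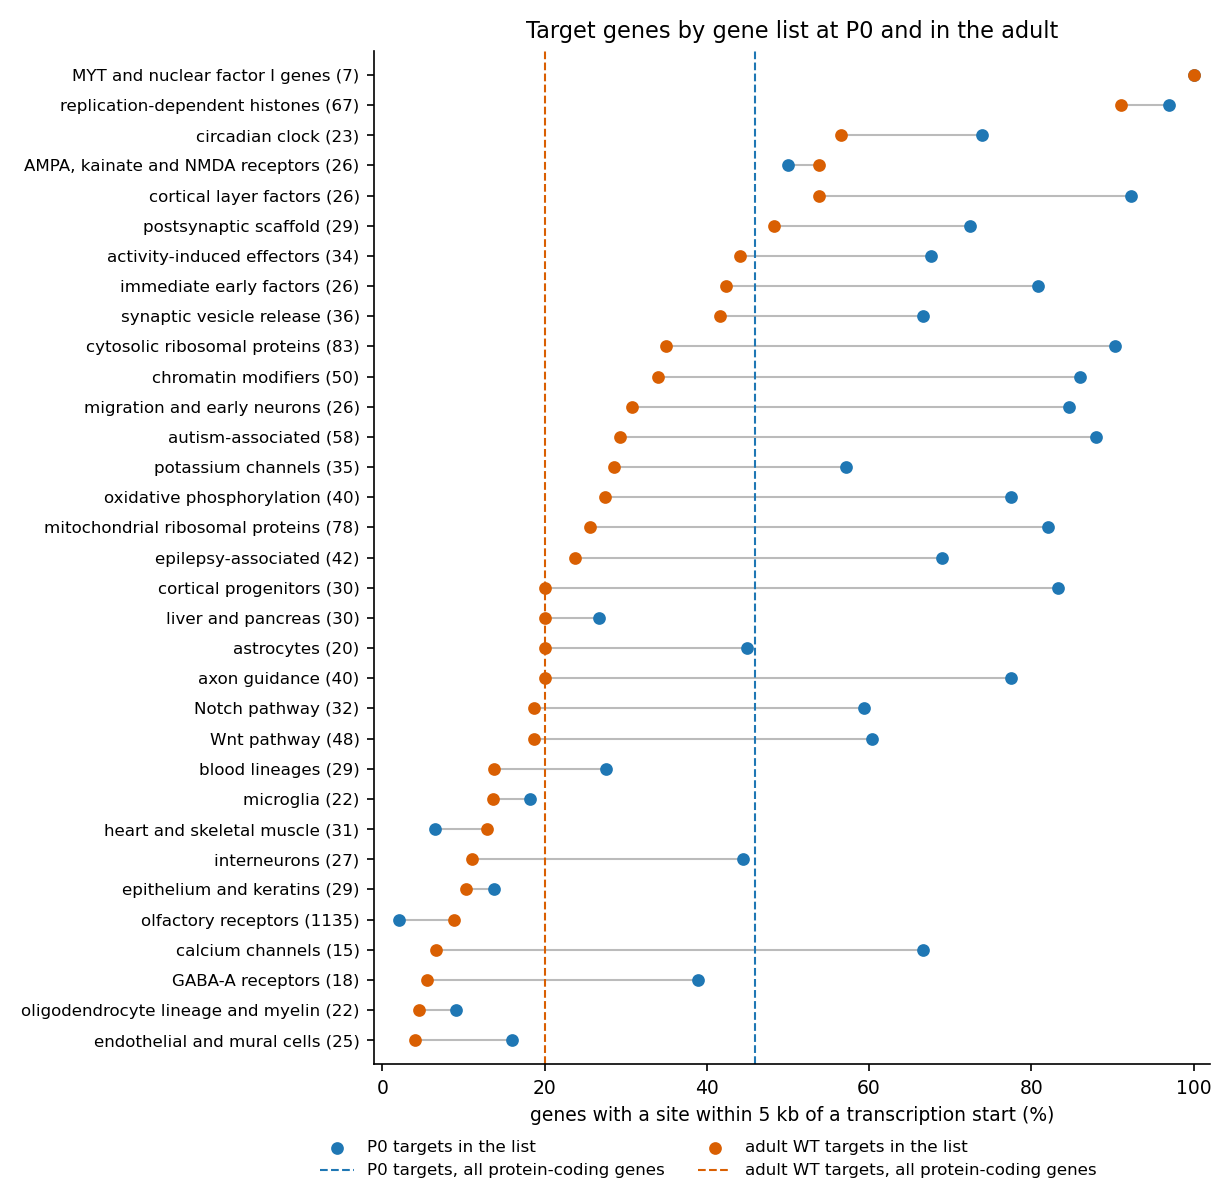
Genes of each list (%, number of genes in brackets) that have a P0 site (blue) or adult site (orange) up to 5 kb from a start, with dashed lines at the values for all protein-coding genes, 45.9% and 20.1%. Histone genes stay near the right edge at both stages, progenitor and axon guidance genes lie on the adult line, and olfactory receptor and muscle genes have more adult than P0 targets.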

How the data were processed

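For MYT1L CUT&RUN of P0 and adult WT prefrontal cortex the authors ran the nf-core/cutandrun pipeline, by their methods, and the labels name mm10 as the build. Aligner and peak caller were not given in the sources used here. Deposited values are positions without scores (start and end in bp), which the authors merged over the 3 libraries of a group into 1 list. Library depth was unknown.

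Overlaps, target genes, widths and word shares were computed with scipy 1.17.1, pandas 2.3.3 and numpy 2.4.6 under Python 3.11.15, and drawn with matplotlib 3.10.9. Sequence and annotation were GRCm38.p6, with 21938 protein-coding genes. Background word shares came from all 150 bp genome windows, weighted to the GC (in 5-point classes) and CpG content of the sites. CpG-rich promoters had at least 50% GC and an observed over expected CpG of 0.6 within 500 bp of the start. Copy number was that of the central 31 bases on both strands. The code was tested on simulated data.

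The members and the 33 gene lists were chosen with earlier results of these data known. Named genes were the 10 with the most bp covered by both lists, by P0 sites alone and by adult sites alone, up to 6 members per class of a gene list by bp, and the 5 genes with the most P0-only and adult-only sites in their span. Fos, Emx2 and Lhx2 and some other list members were named for their known roles, and a few genes the rule names are not reported here. No test between stages was made. Other overlap rules, widths, list sizes, distances, windows and backgrounds were tried.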

Additional observations from a re-analysis of the deposited data

How the results depend on the processing

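No paired analysis was possible because each list is merged over its libraries and holds no value per library, and leaving out a library could not be run for the same reason. Single-copy centres, the 20000 widest sites for target counts and all alternatives of the gene lists were chosen after seeing the data.

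The share of P0 sites found in the adult was 7.51% with an overlap of at least 50% of the narrower site, 11.5% with gaps of up to 500 bp allowed, 6.78% with every site set to 200 bp, 9.50% among sites at or above the median width and 10.8% among the 20000 widest of each list. The share of adult sites found at P0 was 9.81%, 13.2%, 8.61%, 12.3% and 11.1% in the same order, 12.1% among sites under 50% repeat and 11.4% with single-copy centres. Adult target genes numbered 2590 within 1 kb and 2814 from sites at or above the median width. The share of P0 targets kept was 21.8% within 1 kb, 38.0% within 10 kb, 23.7% from sites at or above the median width, 28.9% from the 5' ends of genes alone and 27.4% from the 20000 widest sites. The P0 count of target genes stayed between 7440 and 11400 over its alternatives. In windows of 250 bp on each side the AAAGTT ratio was 1.18 and 1.15 in shared P0 and adult sites, 1.15 in P0-only and 1.02 in adult-only sites. Against windows 1 to 2 kb away it was 1.23, 1.20, 1.28 and 1.15. In adult-only sites it was 1.14 under 50% repeat and 1.12 with single-copy centres. The cause of these shifts was not tested. Which stage had more targets changed in 4 gene lists. Within 1 kb this was so for AMPA, kainate and NMDA receptors (10 at P0 and 5 in the adult, from 13 and 14) and blood lineages (1 and 3, from 8 and 4). With the 20000 widest sites it was so for epithelium (2 and 3, from 4 and 3) and liver and pancreas (4 and 5, from 8 and 6). Of 66 gene list shares 21 left their interval within 1 kb, 13 with the 20000 widest sites and 3 with single-copy centres.

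Depth is unknown and can set both the number and the width of sites, and P0 and adult were sequenced in different runs, so no count or share here separates stage from run. Merged lists give no spread between animals.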
